A study of Mus musculus with 12 samples.

Results

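The transcription factor p53 (gene Trp53) and 9 genes that it induces were examined in mouse bone marrow-derived MSCs (mesenchymal stromal cells) treated with A1. The 10 genes were chosen by name, as Trp53, Mdm2, Ccng1, Cdkn1a, Sesn1, Trp53inp1, Zmat3, Bax, Bbc3 and Fas, and each was matched by its Ensembl identifier to 1 of the 55487 genes counted. All 10 passed the filter on low counts and were among the 11314 protein-coding genes tested. RNA was sequenced from 3 groups of 4 samples, and the study asked how A1 alters the transcriptome of these cells. Control MSCs received no A1. The second group received 50 μM A1 for 6 h, and the third received 50 μM A1 and 1 mg/ml ovalbumin (OVA, chicken egg albumin, a model antigen) for 6 h. A1 is a variant of Accum, a conjugate of cholic acid and a nuclear localization sequence. All cells were wild-type primary C57BL/6 MSCs in AMEM with 10% FBS and penicillin-streptomycin, and the label of the A1 + OVA medium also ends with a mention of insulin, so that an added agent in that group cannot be told apart from OVA. There was no group with OVA alone. Per the study's methods, the MSCs came from the femurs of female mice 6 to 8 weeks old and were stored at passage 9 or 10. Nothing in the labels says whether the 4 samples of a group came from separate mice or cultures, so that the p-values measure the spread between these samples, which may be technical.

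As background, p53 is kept at a low level in unstressed cells because MDM2, the product of one of its own target genes, attaches ubiquitin to it and sends it for degradation. DNA damage and other stresses stop this degradation, so that p53 activity changes mainly through the protein and less through Trp53 mRNA. Active p53 binds response elements in its target genes, which arrest the cell cycle, repair DNA, adjust metabolism or start apoptosis, and in stromal cells it is also known as a brake on proliferation and differentiation. Many of these targets answer to other transcription factors too, and mRNA counts do not measure p53 protein or its binding.

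The p53 response element is a pair of sites of 10 letters, each with purines, a C, 2 letters that are A or T, a G and pyrimidines, and the pair may be separated by a spacer of up to 13 letters. Windows from 250 bases before to 50 bases after RefSeq transcript starts (build GRCm38.p6) were searched for such pairs with at most 3 mismatches to the 20 letters and the C and the G kept in each. The pattern reads the same on both strands. Of the 8 genes with a window, 6 held a match in at least 1 window, against 17.4% of 27025 genes of the genome and 27.3% of 44 other p53-induced genes. Genes with several starts had several windows, and Cdkn1a, Sesn1 and Bbc3 did. Among the 8 genes, Cdkn1a has the only match without a mismatch, and Sesn1, which moved the other way in these cells, has one with 2 mismatches. Their windows are shown whole, 5′ to 3′ on the gene's strand, with the closest match in capitals and its spacer in lower case. The Cdkn1a window is chr17:29090729-29091028 on the plus strand and the Sesn1 window chr10:41887189-41887488 on the plus strand.
Cdkn1a: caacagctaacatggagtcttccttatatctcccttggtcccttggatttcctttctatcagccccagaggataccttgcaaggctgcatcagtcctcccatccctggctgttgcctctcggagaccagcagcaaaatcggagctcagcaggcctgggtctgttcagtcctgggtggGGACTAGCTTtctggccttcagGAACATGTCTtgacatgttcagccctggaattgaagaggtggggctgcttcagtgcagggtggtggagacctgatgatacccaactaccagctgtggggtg
Sesn1: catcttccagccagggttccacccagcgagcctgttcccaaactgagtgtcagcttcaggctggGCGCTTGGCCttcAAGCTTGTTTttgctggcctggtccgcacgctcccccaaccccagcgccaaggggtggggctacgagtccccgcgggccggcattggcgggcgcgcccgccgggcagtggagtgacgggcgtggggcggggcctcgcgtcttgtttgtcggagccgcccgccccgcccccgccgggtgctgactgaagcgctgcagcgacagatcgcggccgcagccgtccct
The Cdkn1a match starts 73 bases before the start of its transcript and 2863 bases before the most downstream start of the gene. A second match overlaps it, with 1 mismatch and no spacer, at chr17:29090928-29090947, and reads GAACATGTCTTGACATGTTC. The closest matches of the other genes are shown without their windows, again with spacers in lower case. They lie at chr11:40755462-40755481 (minus strand, 1 mismatch) in Ccng1, at chr7:45467090-45467114 (minus strand, 2 mismatches) in Bax, at chr7:16309486-16309505 (plus strand, 3 mismatches) in Bbc3 and at chr11:69580261-69580293 (plus strand, 3 mismatches) in Trp53. Sesn1, Bax, Bbc3 and Trp53 each hold another match with as few mismatches, for Bbc3 in another window (chr7:16310156-16310177), and the most upstream is shown.
Ccng1: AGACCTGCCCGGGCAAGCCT
Bax: TGACAAGCATatcccAGGCAAGCTT
Bbc3: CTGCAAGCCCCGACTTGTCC
Trp53: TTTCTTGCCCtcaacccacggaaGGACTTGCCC
No match was found in the windows of Mdm2 and Fas, and Trp53inp1 and Zmat3 were not searched here. The windows end 50 bases after a start, so that elements elsewhere in or near these genes were not looked for. A match describes the sequence only, since binding of p53 was not measured. The matches did not go with 1 direction of change. Of the 6 genes with one, Cdkn1a rose with A1, Ccng1 and Sesn1 fell, and Trp53, Bax and Bbc3 did not pass the test.

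**Figure D1:**
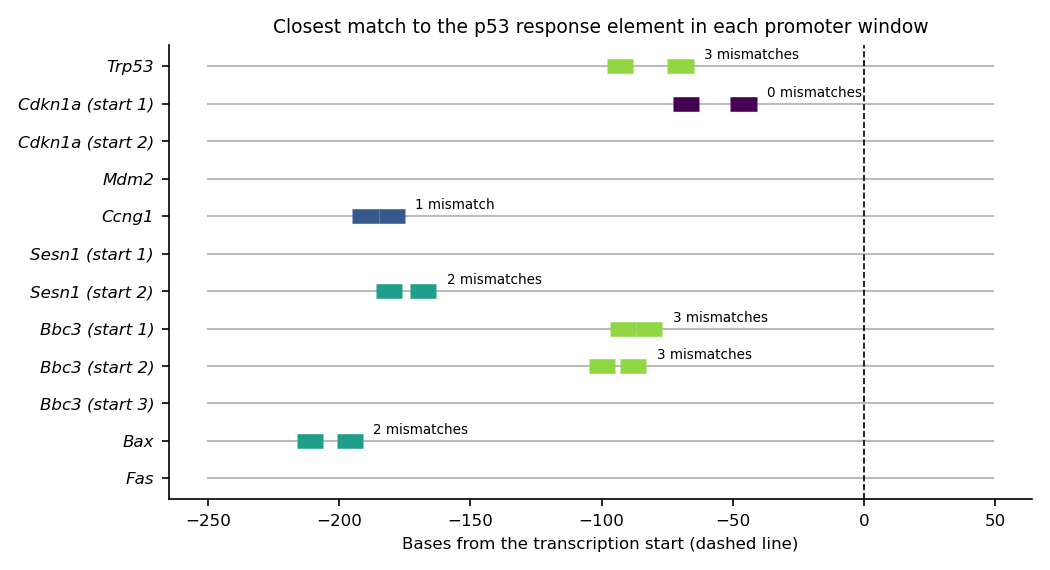
Position of the closest match to the p53 response element in each promoter window of 8 genes, in bases from the transcription start (dashed line). Each row is 1 RefSeq start, coloured blocks are the paired sites, lines without blocks are windows without a match, and Cdkn1a has the closest match, with 0 mismatches.

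Each sample had between 13702348 and 16881995 counts, and levels are given in CPM (the share of a sample's counts, scaled by TMM, on the usual counts-per-million scale). Among the 11 MSC markers, Col1a1, Col1a2, Pdgfrb and Cxcl12 were abundant. Thy1 and Nt5e, which encode the surface proteins CD90 and CD73, averaged 0.267 and 0.539 CPM in control samples. The mRNA of these defining markers was thus near the limit of detection. The study assessed both proteins on its MSCs by flow cytometry, and mRNA counts do not measure surface protein. Of 12 haematopoietic and endothelial markers, 6 in control, 7 in A1 and 7 in A1 + OVA samples had at most 3 counts in every sample, among them Adgre1, Itgam and Cd3e. Their summed level was 9.78 to 10.7 CPM in control, 12.2 to 15.0 CPM in A1 and 10.9 to 13.3 CPM in A1 + OVA samples, most of it Cd14. The summed level of the MSC markers was 12250 to 12960 CPM in control, 9169 to 9797 CPM in A1 and 9453 to 10050 CPM in A1 + OVA samples, with Cxcl12, Pdgfra and Vcam1 among those that fell and Cd44 higher. Whether these shifts have a part in the p53 results was not tested, and in bulk samples fewer cells of a type and less RNA per cell cannot be told apart.

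With A1, p53 target genes moved in both directions, while Trp53 mRNA itself did not pass the test. Trp53inp1, Fas and Sesn1 fell by 65.6%, 65.1% and 52.4% of their control level, and Cdkn1a rose by 42.8% and Mdm2 by 18.4%. With an adjusted p under 0.05 (edgeR quasi-likelihood test, Benjamini-Hochberg over all genes tested), 2 of the 10 genes rose and 4 fell with A1, where 31.7% of all tested genes rose and 31.1% fell. The sample values of 6 of the 10 genes did not overlap between A1 and control, which held for 54.4% of tested genes. The median log2 fold change of the 10 genes was -0.08, against -0.002 over all tested genes. The share of these genes called is thus near that of any gene in these cells.

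**Figure D2:**
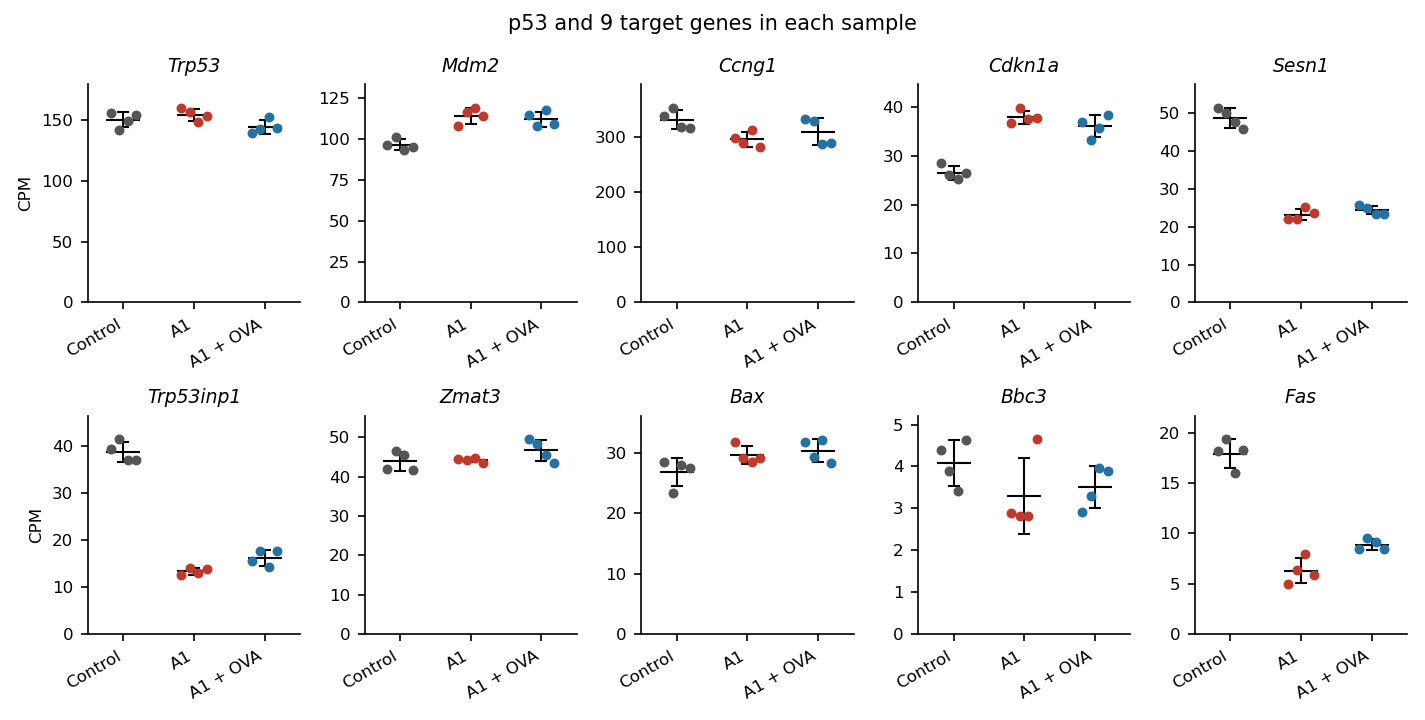
CPM of Trp53 and 9 target genes in each of the 12 samples, with points for samples, horizontal bars for the group mean and vertical bars for the SD (n = 4). Sesn1, Trp53inp1 and Fas lie lower in all treated samples than in all control samples, and Cdkn1a and Mdm2 lie higher.

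Trp53 itself (ENSMUSG00000059552, chr11:69580359-69591873, plus strand, GRCm38) was measured at 156, 142, 150 and 154 CPM in the control samples. The A1 samples held 160, 157, 149 and 153 CPM and the A1 + OVA samples 140, 143, 153 and 143 CPM. All 3 groups overlapped. The log2 fold change was 0.04 (SE 0.0405, 95% interval -0.04 to 0.13) with A1, with an adjusted p of 0.391 in the edgeR test, and -0.06 (SE 0.0404, 95% interval -0.14 to 0.03) with A1 + OVA, with an adjusted p of 0.243. The intervals leave room for changes of at most 0.14 on the log2 scale in either direction. At 37.2 CPM per kb of exon in control cells, Trp53 was the second most abundant of the 10 genes, above 88.9% of tested genes.

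Mdm2 (ENSMUSG00000020184, chr10:117688875-117710758, minus strand) encodes the ubiquitin ligase that closes the feedback loop on p53. Its level was 96.6, 101, 93.5 and 95.1 CPM in control, 108, 117, 119 and 114 CPM in A1, and 115, 108, 118 and 109 CPM in A1 + OVA samples. Every treated sample exceeded every control sample, and the A1 and A1 + OVA samples overlapped each other. Mdm2 rose by a log2 fold change of 0.24 (SE 0.0422, edgeR adjusted p = 3.76e-05) with A1 and 0.22 (SE 0.0419, edgeR adjusted p = 0.000149) with A1 + OVA.

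Ccng1 (ENSMUSG00000020326, chr11:40748552-40755311, minus strand) encodes cyclin G1, which recruits the phosphatase PP2A to MDM2 and belongs to the same feedback. It was the most abundant of the 10 genes, at 94.4 CPM per kb in control cells. Control samples held 339, 353, 318 and 316 CPM, A1 samples 299, 289, 313 and 283 CPM, and A1 + OVA samples 333, 329, 288 and 290 CPM. The A1 samples all lay under the control samples, though the highest A1 sample nearly reached the lowest control, and the A1 + OVA samples spread over the range of both other groups. Ccng1 fell by 0.16 on the log2 scale with A1 (SE 0.051, edgeR adjusted p = 0.00809), opposite in direction to Mdm2. With A1 + OVA its log2 fold change was -0.10 (SE 0.0508, edgeR adjusted p = 0.103), and the call was gained without A1 + OVA replicate 1 (-0.13, edgeR adjusted p = 0.032) and under upper-quartile normalization (-0.12, edgeR adjusted p = 0.0431).

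Cdkn1a (ENSMUSG00000023067, chr17:29090976-29100727, plus strand) encodes p21, the inhibitor of cyclin-dependent kinases through which p53 arrests the cell cycle. In control samples its level was 28.5, 25.95, 25.3 and 26.4 CPM. With A1 it was 36.7, 39.8, 37.4 and 37.6 CPM and with A1 + OVA 37.0, 33.2, 35.6 and 38.4 CPM. All 8 treated samples stood above all control samples, by 1.43-fold on average with A1 and 1.36-fold with A1 + OVA. The log2 fold change was 0.51 (SE 0.0583, 95% interval 0.39 to 0.63, edgeR adjusted p = 1.21e-07) with A1 and 0.44 (SE 0.0578, 95% interval 0.32 to 0.56, edgeR adjusted p = 1.12e-06) with A1 + OVA. In control cells Cdkn1a stood at 7.47 CPM per kb, a level that 50.1% of tested genes did not reach, and the level in A1 samples was 10.7 CPM per kb.

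Sesn1 (ENSMUSG00000038332, chr10:41809935-41908424, plus strand) encodes sestrin 1, which restrains mTORC1 signalling and counters oxidative stress. Its level was 51.5, 50.2, 47.8 and 45.8 CPM in control samples, 22.1, 21.99, 25.2 and 23.6 CPM in A1 samples and 25.7, 25.1, 23.5 and 23.5 CPM in A1 + OVA samples. No treated sample came near the lowest control sample, and the A1 and A1 + OVA samples lay in the same range. Sesn1 was 2.10-fold lower with A1 (log2 fold change -1.07, SE 0.059, edgeR adjusted p = 9.70e-13) and 2.00-fold lower with A1 + OVA (log2 fold change -1.0, SE 0.0576, edgeR adjusted p = 2.38e-12). A transcript of unconfirmed coding status, 9930024M15Rik, overlaps it on the same strand and had at most 7 counts in a sample.

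Trp53inp1 (ENSMUSG00000028211, chr4:11156431-11174379, plus strand) encodes a stress protein that acts with p53 in apoptosis and takes part in autophagy. Control samples held 39.3, 41.4, 36.9 and 37.1 CPM, A1 samples 12.4, 13.97, 12.9 and 13.9 CPM, and A1 + OVA samples 15.5, 17.5, 14.1 and 17.7 CPM. The 3 groups were separate, with control highest and A1 lowest. Its fall was by point value the largest among the 10 genes, close to that of Fas, and was 2.91-fold with A1 (log2 fold change -1.54, SE 0.0734, edgeR adjusted p = 8.71e-14) and 2.38-fold with A1 + OVA (log2 fold change -1.25, SE 0.0695, edgeR adjusted p = 1.31e-12).

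Zmat3 (ENSMUSG00000027663, chr3:32334792-32366014, minus strand) encodes a zinc finger protein that binds RNA. It varied from 41.7 to 46.6 CPM in control, from 43.5 to 44.7 CPM in A1 and from 43.5 to 49.5 CPM in A1 + OVA samples, and the groups overlapped. Its log2 fold change was 0.01 with A1 (SE 0.0528, 95% interval -0.10 to 0.12, edgeR adjusted p = 0.876) and 0.09 with A1 + OVA (SE 0.0518, 95% interval -0.02 to 0.19, edgeR adjusted p = 0.160). The sign of the first value turned under other settings, between -0.02 and 0.04.

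Of the apoptosis genes, Fas (ENSMUSG00000024778, chr19:34290666-34327772, plus strand) encodes the death receptor that binds FAS ligand. It was measured at 18.2, 19.3, 15.96 and 18.3 CPM in control, 4.92, 6.34, 7.94 and 5.88 CPM in A1, and 8.41, 9.498, 9.11 and 8.44 CPM in A1 + OVA samples. As for Trp53inp1, the 3 groups were separate and the A1 + OVA samples lay between the others. Fas was 2.87-fold lower with A1 (log2 fold change -1.52, SE 0.106, edgeR adjusted p = 4.92e-11) and 2.02-fold lower with A1 + OVA (log2 fold change -1.02, SE 0.0966, edgeR adjusted p = 9.39e-09). The A1 samples rest on 68 to 104 counts of this gene each.

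Bax (ENSMUSG00000003873, chr7:45461697-45466898, minus strand) encodes a protein that permeabilizes the mitochondrial outer membrane. Its level was 28.5, 23.4, 27.9 and 27.5 CPM in control, 31.8, 29.1, 28.5 and 29.1 CPM in A1, and 31.8, 29.3, 32.2 and 28.3 CPM in A1 + OVA samples. Control replicate 2 was the lowest of all samples, and each treated group overlapped control. The log2 fold change was 0.14 with A1 (SE 0.0679, edgeR adjusted p = 0.0691) and 0.18 with A1 + OVA (SE 0.0666, edgeR adjusted p = 0.0274). The second call was lost under upper-quartile normalization (0.15, edgeR adjusted p = 0.0533), without control replicate 2 (0.12, edgeR adjusted p = 0.119), without A1 + OVA replicate 1 (0.16, edgeR adjusted p = 0.0696) and without A1 + OVA replicate 3 (0.15, edgeR adjusted p = 0.0846), and the first was gained without control replicate 1 (0.18, edgeR adjusted p = 0.0389). A second protein-coding gene model, Gm45808, overlaps Bax on the same strand with 0 counts in every sample, so that reads in shared exons may have been left out.

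Bbc3 (ENSMUSG00000002083, chr7:16308393-16318205, plus strand) encodes PUMA, which releases BAX from its inhibitors. It was the least abundant of the 10 genes, at 1.92 CPM per kb in control cells, with 37 to 74 counts per sample. Control samples held 4.39, 3.90, 3.40 and 4.64 CPM, A1 samples 2.89, 2.83, 2.82 and 4.65 CPM, and A1 + OVA samples 2.90, 3.29, 3.96 and 3.88 CPM. A1 replicate 4 lay as high as the highest control sample while the other A1 samples lay under every control sample. The log2 fold change was -0.30 with A1 (SE 0.167, 95% interval -0.65 to 0.05, edgeR adjusted p = 0.121) and -0.21 with A1 + OVA (SE 0.161, 95% interval -0.55 to 0.12, edgeR adjusted p = 0.271). Without A1 replicate 4 the first became -0.52 (edgeR adjusted p = 0.00935).

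**Figure D3:**
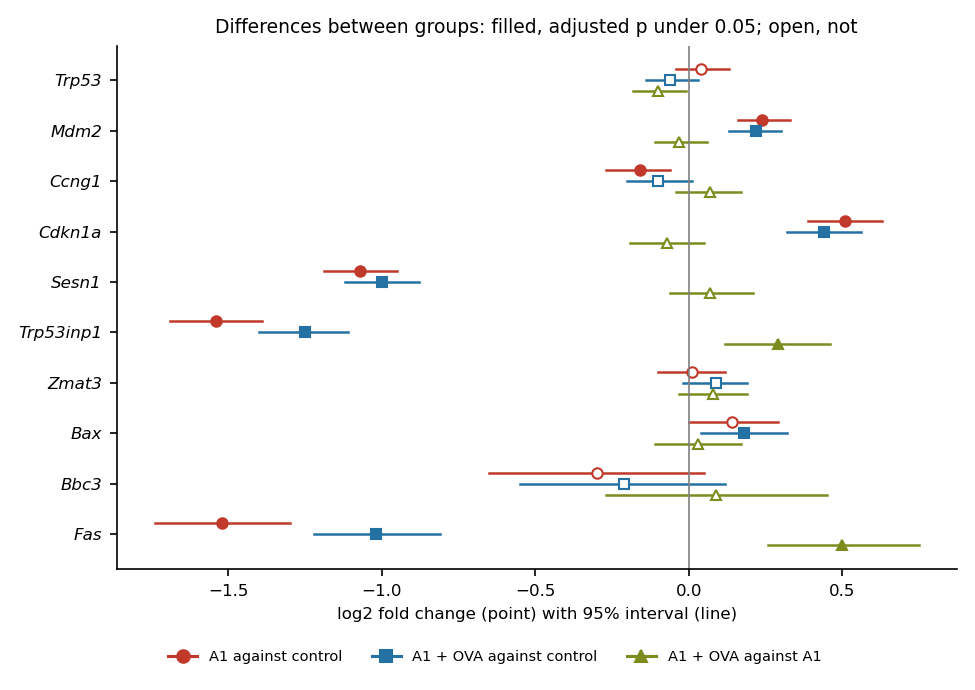
Log2 fold changes of the 10 genes with their 95% intervals in the 3 comparisons of the edgeR fit. Filled symbols passed an adjusted p under 0.05. Trp53inp1 and Fas are the genes whose A1 + OVA value also differs from A1, by 0.29 and 0.50.

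Per length, the 10 genes in control cells ranked from Ccng1 through Trp53, Mdm2, Bax (17.02 CPM per kb), Sesn1 (12.3), Fas (8.70), Cdkn1a, Trp53inp1 (5.97) and Zmat3 (3.84) to Bbc3. Of the neighbours in this order, Fas and Cdkn1a overlapped in their control samples. After A1, Cdkn1a stood above Sesn1 (5.83 CPM per kb) and Fas (3.04) and, as in control, above Zmat3 (3.87). Between the samples of a group the coefficient of variation of these genes was 1.22% to 27.3%, highest for Bbc3 in A1 samples.

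A1 + OVA was compared with control and with A1 to see what the antigen added. Against control, 3 of the 10 genes rose and 3 fell with A1 + OVA, where 29.7% of tested genes rose and 27.9% fell, and 5 did not overlap control, as for 49.4% of tested genes. The control samples are shared with the A1 comparison, so that these counts are no separate evidence. Against A1, 2 of the 10 genes were higher with A1 + OVA, where 6.05% of tested genes were higher and 6.81% lower, and 2 did not overlap, as for 18.1% of tested genes. These were Fas (log2 fold change 0.50, SE 0.119, edgeR adjusted p = 0.00752) and Trp53inp1 (log2 fold change 0.29, SE 0.0824, edgeR adjusted p = 0.0239), both of which stayed under control. The Trp53inp1 call was lost without A1 replicate 1 (0.25, edgeR adjusted p = 0.0845), A1 replicate 3 (0.28, edgeR adjusted p = 0.0625), A1 + OVA replicate 2 (0.25, edgeR adjusted p = 0.0755) or A1 + OVA replicate 4 (0.24, edgeR adjusted p = 0.0915). None of the 10 genes was lower than with A1 by edgeR (0 at an adjusted p under 0.05, 1 at an unadjusted p, Trp53, and 0 by DESeq2). Cdkn1a differed from A1 by -0.07 (95% interval -0.19 to 0.05), Mdm2 by -0.03 (95% interval -0.11 to 0.06) and Sesn1 by 0.07 (95% interval -0.06 to 0.21), on the log2 scale.

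The wider set of p53-induced genes also split. Of 53 other genes listed as induced by p53, 48 were tested. Whether p53 induces each of them in these mouse cells was not tested. With A1, 14 rose and 15 fell (29.2% and 31.3%, near the shares of all tested genes), with a median log2 fold change of 0.07. With A1 + OVA, 14 rose and 16 fell (29.2% and 33.3%, against 29.7% and 27.9% of all tested genes). Prdm1, Perp, Trp53i11 and Spata18 did not pass the filter on low counts, and Trp53cor1 is non-coding and was not tested.

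Among the 8 cell cycle targets tested, 4 rose with A1 and 2 fell, where 31.7% of all tested genes rose and 31.1% fell. Plk2, a kinase of the polo family, was measured at 59.6, 55.0, 56.3 and 58.2 CPM in control, 99.4, 116, 124 and 120 CPM in A1, and 133, 141, 151 and 135 CPM in A1 + OVA samples. The 3 groups were separate and A1 + OVA was highest. Its log2 fold change was 1.00 (SE 0.0587, edgeR adjusted p = 2.59e-12) with A1 and 1.29 with A1 + OVA (SE 0.0577, edgeR adjusted p = 3.52e-14). The related kinase Plk3 rose from 4.53 to 8.66 CPM (log2 fold change 0.93), the antiproliferative gene Btg2 from 11.3 to 20.01 CPM (0.82) and Ier5, an immediate early response gene, from 58.4 to 80.7 CPM (0.47). Gadd45a, which couples stress signals to growth arrest, fell by 0.38 on the log2 scale with A1 and Psrc1, a spindle gene, fell by 0.41.

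Among 11 apoptosis targets, 2 rose, 2 fell and 7 did not pass with A1 (18.2% in each direction, under the 31.7% and 31.1% of all tested genes). Pmaip1, which encodes the BH3-only protein NOXA, held 5.08, 5.14, 4.83 and 5.96 CPM in control, 12.5, 12.8, 14.1 and 10.8 CPM in A1, and 14.1, 13.4, 13.5 and 11.8 CPM in A1 + OVA samples. All treated samples stood above all control samples, whereas Bbc3, which encodes another BH3-only protein, had the values given above and did not pass. The log2 fold change of Pmaip1 was 1.25 (SE 0.104, edgeR adjusted p = 8.41e-10) with A1. Aen, a nuclease active in apoptosis, rose from 26.1 to 44.0 CPM (log2 fold change 0.75). Casp1, the inflammatory caspase, fell from 37.6 to 15.0 CPM (-1.32, edgeR adjusted p = 2.49e-13), and the death receptor Tnfrsf10b from 58.8 to 52.4 CPM (-0.16, edgeR adjusted p = 0.00394).

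Of 10 targets listed under DNA repair, 3 rose and 3 fell with A1, near the 31.7% and 31.1% of all tested genes. Pcna, the sliding clamp of DNA polymerases, rose from 183 to 234 CPM (log2 fold change 0.35, edgeR adjusted p = 1.07e-07), and the translesion polymerase genes Polh and Polk rose by 0.19 and 0.17. Fdxr, which is counted in this list but encodes ferredoxin reductase of the mitochondrion and no repair protein, fell from 20.02 to 10.2 CPM (-0.97, edgeR adjusted p = 1.06e-09). Ddb2 and Ercc5, both of nucleotide excision repair, fell from 8.87 to 4.56 CPM (-0.95) and from 42.1 to 32.9 CPM (-0.35).

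Of 16 targets with metabolic or other roles, 5 rose and 7 fell with A1 (31.3% and 43.8%, against 31.7% and 31.1% of all tested genes). Tap1 (peptide transport for antigen presentation) fell by 1.00 on the log2 scale, Pltp (phospholipid transfer) fell by 0.74, Dgka (diacylglycerol kinase) fell by 0.65 and Ak1 (adenylate kinase) fell by 0.57, each with an edgeR adjusted p of at most 8.34e-05. The genes that rose moved less, from 0.13 for Rps27l to 0.39 for Tigar, with Phlda3, Slc19a2 and Prkab1 between them. Of 3 feedback genes, Rchy1, a ubiquitin ligase for p53, had a log2 fold change of -0.14 (edgeR adjusted p = 0.0104), a call lost without A1 replicate 2 (-0.11, edgeR adjusted p = 0.0512). None of these 3 feedback genes rose in the edgeR test (0 at an unadjusted p under 0.05 and 0 by DESeq2), where 31.7% of all tested genes rose. Mdm2, which rose, and Ccng1, which fell, also belong to the feedback on p53 but are not in this list.

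**Figure D4:**
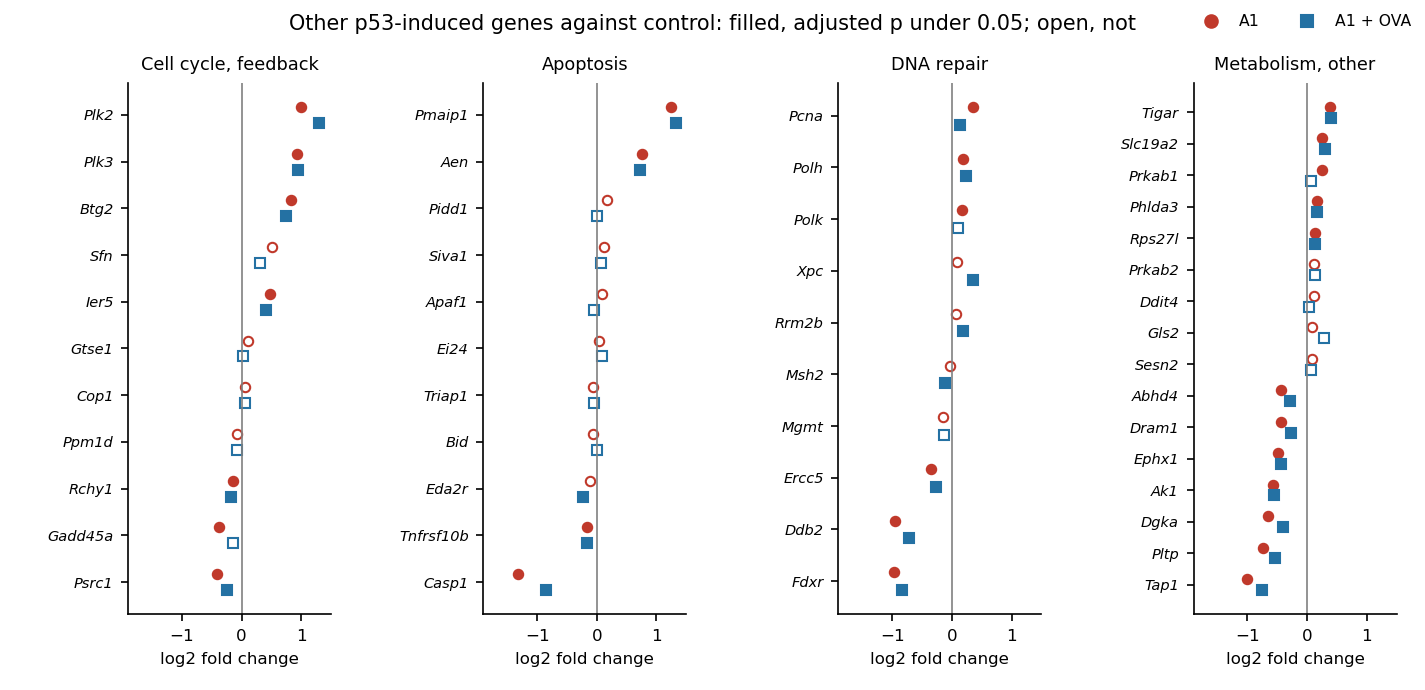
Log2 fold changes against control of the 48 other p53-induced genes tested, by role, for A1 (circles) and A1 + OVA (squares). Filled symbols passed an adjusted p under 0.05, and each panel holds genes on both sides of 0, from -1.32 (Casp1) to 1.25 (Pmaip1) with A1.

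Between A1 + OVA and A1, 5 of these 48 genes were higher and 2 lower by edgeR (10.4% and 4.17%, against 6.05% and 6.81% of all tested genes). Casp1 (log2 fold change 0.48, edgeR adjusted p = 0.000167) and Plk2 (0.29, edgeR adjusted p = 0.00149) were higher, as were Xpc, Dram1 and Abhd4 by 0.26, 0.15 and 0.14. Pcna (-0.23, edgeR adjusted p = 0.000664) and Prkab1 (-0.19) were lower. The number higher was 3 without A1 replicate 1, 3 or 4, A1 + OVA replicate 4 or control replicate 3, and the number lower was 1 without A1 replicate 4 or A1 + OVA replicate 4. Over all 11314 tested genes, 459 to 771 were higher and 499 to 849 lower as single samples were left out.

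Genes that act on p53 moved in both directions too. Of 27 regulators of p53, 26 were tested, and 4 rose and 11 fell with A1 (15.4% and 42.3%, against 31.7% and 31.1% of all tested genes, with a median log2 fold change of -0.13). With A1 + OVA, 4 rose and 11 fell too, against 29.7% and 27.9% of all tested genes. Trp73, a relative of Trp53, was at 0 counts in every sample but one A1 sample with 1 count.

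Trp63, the other p53 family member, showed the largest change of this list. It was measured at 35.0, 36.8, 34.2 and 36.0 CPM in control, 10.3, 11.3, 11.7 and 10.9 CPM in A1, and 12.7, 14.1, 14.9 and 15.2 CPM in A1 + OVA samples. The groups were separate, in the same order as for Trp53inp1 and Fas. The log2 fold change was -1.69 (SE 0.0679, edgeR adjusted p = 5.57e-15) with A1 and -1.31 (SE 0.0636, edgeR adjusted p = 1.29e-13) with A1 + OVA, and A1 + OVA exceeded A1 by 0.37 (SE 0.0771, edgeR adjusted p = 0.00285). Ppp1r13l, which encodes the p53 inhibitor iASPP, moved the other way, from 12.4 to 22.8 CPM with A1 (0.88, edgeR adjusted p = 2.35e-09).

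Among the kinases that phosphorylate p53 in the DNA damage response, Prkdc fell by 0.72 on the log2 scale with A1 (edgeR adjusted p = 0.000101) and Chek2 fell by 0.40 (edgeR adjusted p = 2.80e-06), while Chek1 rose by 0.25 (edgeR adjusted p = 0.00156). Atm and Atr had values of 0.01 and 0.10 and did not pass. In the ubiquitin group, the deubiquitinase gene Usp10 rose by 0.38 and Cdkn2a fell by 0.28. ARF, a product of Cdkn2a, inhibits MDM2, but the gene has more than 1 transcript start and counts per gene do not tell its products apart. Mdm4, the partner of MDM2, had a log2 fold change of -0.21 (edgeR adjusted p = 0.0489), and this call was lost without A1 replicate 1 or 3 or control replicate 2, 3 or 4, with values from -0.20 to -0.17, and by DESeq2 (-0.22, adjusted p = 0.131). The acetyltransferase genes Kat2b, Ep300 and Kat5 fell by 0.54, 0.26 and 0.17 and the deacetylase gene Hdac1 fell by 0.14. Of the 7 genes of this acetylation group, 4 fell (57.1%) with A1, where 31.1% of all tested genes fell and 31.7% rose. Crebbp, Kat8 and Sirt1 did not pass. No gene of the group rose in the edgeR test (0 at an unadjusted p under 0.05 and 0 by DESeq2). Trp53bp1, a DNA damage adaptor, fell by 0.42. In A1 samples, Prkdc, Ep300, Mdm4 and Trp53bp1 were each higher in replicates 2 and 4 than in replicates 1 and 3. Prkdc held 13.74, 21.76, 12.44 and 18.95 CPM in A1 replicates 1 to 4. In control samples, replicate 1 was the lowest for each of them, and Ep300 overlapped between A1 and control. This was noticed after the values were seen, and whether their falls are separate was not tested. Wrap53, the neighbour of Trp53 on the opposite strand, had a log2 fold change of 0.29 (edgeR adjusted p = 0.0249), a call lost without A1 replicate 1 or 4 or control replicate 2 or 4, with values from 0.22 to 0.28, and by DESeq2 (0.29, adjusted p = 0.0573).

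Between A1 + OVA and A1, 1 of the 26 regulators (Trp63) was higher by edgeR, where 6.05% of tested genes were, and 0 were lower (3 at an unadjusted p under 0.05, which are Chek1, Hdac1 and Sirt1, and 0 by DESeq2). The number higher was 3 without A1 + OVA replicate 1 and 2 without A1 + OVA replicate 2 or control replicate 1, and the number lower was 1 without A1 replicate 2, A1 + OVA replicate 4 or control replicate 1. Calls over all tested genes moved as well, with 459 to 771 higher and 499 to 849 lower as single samples were left out.

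Cell cycle genes that p53 is known to lower through p21 and the DREAM repressor complex moved in both directions. Of 20 such genes, all tested, 9 rose and 3 fell with A1 (45% and 15%, against 31.7% and 31.1% of all tested genes, median log2 fold change 0.09). With A1 + OVA, 4 rose and 6 fell (20% and 30%, against 29.7% and 27.9% of all tested genes, median -0.02). Mybl2, a transcription factor gene of S phase, was measured at 24.9, 26.4, 25.9 and 27.5 CPM in control, 47.1, 47.3, 43.7 and 48.1 CPM in A1, and 36.0, 33.7, 35.8 and 35.2 CPM in A1 + OVA samples. A1 was highest, A1 + OVA intermediate and control lowest, with no overlap. Its log2 fold change was 0.83 (SE 0.0521, edgeR adjusted p = 8.19e-12) with A1 and 0.43 (SE 0.053, edgeR adjusted p = 5.48e-07) with A1 + OVA. Kif23, a kinesin of cytokinesis, rose by 0.31 with A1. The proliferation marker Mki67 fell by 0.49 on the log2 scale (edgeR adjusted p = 0.000212) and the mitotic cyclin gene Ccnb2 fell by 0.35 (edgeR adjusted p = 5.28e-06). Mki67 held 369.8, 464.9, 338.5 and 442.5 CPM in A1 replicates 1 to 4, which ranks these samples as Prkdc does. Whether the falls of Mki67 and Prkdc are separate was not tested.

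Compared with A1, A1 + OVA samples were lower in 8 of the 20 genes and higher in 0 (0 at an unadjusted p under 0.05 by edgeR and 0 by DESeq2), where 6.81% of tested genes were lower. Mybl2 differed by -0.41 (SE 0.0507, edgeR adjusted p = 2e-05) and Kif23 by -0.14 (SE 0.0425, edgeR adjusted p = 0.0398). Mcm5, a subunit of the replicative helicase, was chosen after its values were seen, because it rose with A1 (0.20, edgeR adjusted p = 0.000349), fell with A1 + OVA (-0.12, edgeR adjusted p = 0.0186) and differed between them by -0.33 (SE 0.0434, edgeR adjusted p = 3.46e-05). These genes are not particular to p53, since they also follow the cell cycle itself.

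**Figure D5:**
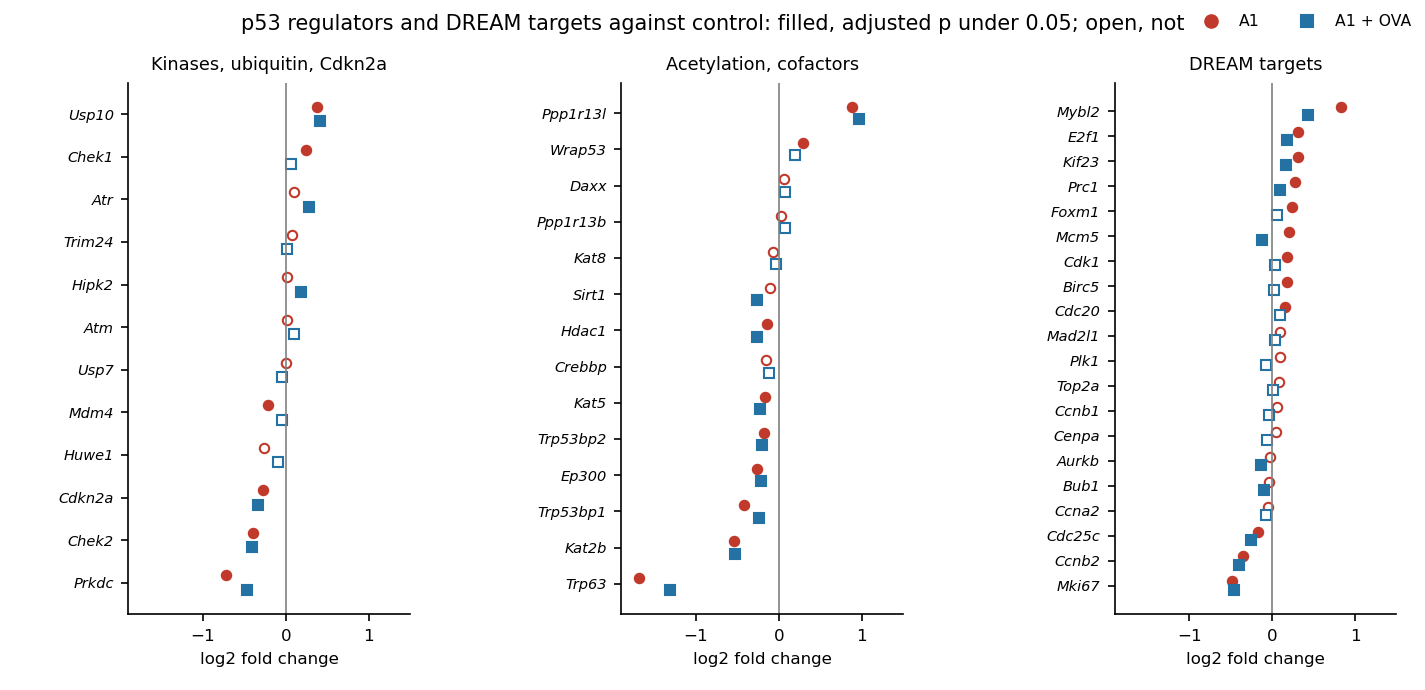
Log2 fold changes against control of 26 regulators of p53 and 20 DREAM targets, for A1 (circles) and A1 + OVA (squares). Filled symbols passed an adjusted p under 0.05. Trp63 (-1.69 with A1) and Ppp1r13l (0.88) lie farthest out among the regulators and Mybl2 (0.83) among the DREAM targets.

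Over the 12 samples, the genes whose log2 CPM was most like that of Cdkn1a were Wdr74 (Pearson r = 0.98), Smox (0.979) and Snu13 (0.978). Those most like Trp53 were Midn (0.912), Inava (0.9) and Tk1 (0.874). These values are descriptions, since the 12 samples share 3 groups and a shared difference between groups can raise them. Correlations within groups were not computed.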

How the data were processed

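RNA of MSCs was measured in 3 groups of 4 samples, grouped by their titles. The authors prepared strand-specific polyA libraries, aligned reads to GRCm38 with STAR (version 2.7), counted them per gene with featureCounts (version 2.0, after bcl2fastq 2.20, per the labels) and deposited raw counts of 55487 genes without normalization or filter. Symbols, coordinates and exon lengths came from GENCODE M21 of GRCm38, which holds 99.53% of the identifiers. Protein-coding genes that passed filterByExpr were normalized by TMM and tested with the quasi-likelihood test of edgeR 4.0.16 (R 4.3.3), with all 12 samples in 1 fit, no covariate and Benjamini-Hochberg adjustment. Total counts per sample were 13702348 to 16881995, and 3 counts were taken as the smallest signal. The 4 samples per group limit the precision. DESeq2 1.42.0, the tool of the study's methods, and other normalizations, filters, thresholds, a replicate block and each sample left out were alternatives. The tests and the motif search were tested on simulated data. For the likeness of genes, log2 CPM used a prior count of 2.

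The members and all lists were chosen with earlier results of these data known. Named are the 10 genes, in each role list up to 4 genes with the largest change among those called with A1, undetected genes, and 3 genes most like Cdkn1a and like Trp53 by Pearson r. Further genes were named after their values were seen, where a count of called genes was 5 or fewer, where a neighbouring gene was set beside them (Atm, Atr), and Mcm5. Promoter windows came from RefSeq (GRCm38.p6) and were matched by symbol for 8 of the 10 genes.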

Additional observations from a re-analysis of the deposited data

Results flagged for a closer look

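In groups of 4 samples, a sample was marked when its gap to the nearest other sample, divided by the range of the group, exceeded Dixon's critical value at the 95% level. Of 135 groups of 45 genes, 8 were marked, and chance alone marks about 1 in 20 groups. Among the 10 p53 genes this was Bbc3, with 4.65 CPM in A1 replicate 4 against 2.82 to 2.89 CPM in the other A1 samples, and this sample decides whether Bbc3 is called. Casp1 was low in the same sample, at 13.72 CPM against 15.4 to 15.6 CPM. Tnfrsf10b was low (57.3 CPM against 59.1 to 59.3 CPM) and Ak1 high (143.5 CPM against 133 to 135 CPM) in control replicate 1. Fdxr was low in A1 replicate 2, at 8.47 CPM against 10.6 to 10.99 CPM. Pltp was low in A1 replicate 3, at 13.1 CPM against 13.87 to 13.9 CPM. Usp10 was high in A1 + OVA replicate 3, at 94.6 CPM against 87.9 to 88.9 CPM. Wrap53 was low in A1 + OVA replicate 4, at 6.22 CPM against 7.03 to 7.13 CPM.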

How the results depend on the processing

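Of 600 values of the 10 genes under other settings (20 for each gene and comparison), 584 kept direction and call, 8 lost the call, 5 gained it and 3 turned direction. The 3 were Zmat3 with A1, at -0.02 under upper-quartile normalization and -0.01 without control replicate 1 or 4. Of 1400 values of the other named genes, 1385 kept both, 12 lost and 1 gained the call, and 2 turned, both Mdm4 with A1 + OVA (0.04 and 0.01 without A1 + OVA replicate 1 or 2, within a range of -0.12 to 0.04 as single samples were left out). Cdkn1a, Mdm2, Sesn1, Trp53inp1 and Fas kept their calls against control under each of these 20 settings. Under the threshold on log2 fold change described next, Mdm2 was not counted (0.24 with A1, 0.22 with A1 + OVA). Cdkn1a was not counted with A1 + OVA (0.44). The cause of the lost and gained calls was not tested.

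With a log2 fold change of at least 0.5 also required, fewer genes were counted. The share of all tested genes under this threshold was not computed, so that these counts cannot be read as particular to the lists. With A1 the genes counted were 1 of the 10 p53 genes higher and 3 lower (Trp53inp1, Fas and Sesn1). In the other lists they were 5 other p53-induced genes higher and 7 lower, 1 regulator higher and 3 lower, and 1 DREAM target higher and 0 lower. With A1 + OVA they were 0 p53 genes higher, with Trp53inp1, Fas and Sesn1 again lower. In the other lists they were 5 other p53-induced genes higher and 6 lower, 1 regulator higher and 2 lower, and 0 DREAM targets higher and 0 lower. Between A1 + OVA and A1 they were 1 p53 gene higher, 0 other p53-induced genes higher and 0 lower, 0 regulators higher and 0 DREAM targets lower.

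Other changes of counts by over 1.5 times concerned A1 + OVA against A1. The number of p53 genes higher was 1 to 2 as single samples were left out. Other p53-induced genes higher numbered 3 by DESeq2, 3 without a filter on low counts and 3 to 5 as single samples were left out, and those lower 1 to 2. Regulators higher numbered 4 without the filter, 2 with only the groups compared and 1 to 3 as single samples were left out, and regulators lower numbered 1 with RLE normalization, 1 without the filter and 0 to 1 as single samples were left out. Calls over all tested genes moved too. Those higher numbered 685 of 11314 in the main edgeR fit, 566 by DESeq2, 733 with only the groups compared and 760 of 16071 without the filter. As single samples were left out, 459 to 771 of all tested genes were higher and 499 to 849 lower. With A1 + OVA, the median log2 fold change of the regulators was -0.13 without control replicate 1, and that of the DREAM targets -0.04 without it and under upper-quartile normalization.

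The samples were not treated as pairs by replicate number. Same-numbered samples of different groups had a mean correlation of deviations of 0.0215 (-0.132 to 0.156 over 12 pairs), against -0.00704 for differing numbers. Such values cannot exclude that same-numbered samples shared a culture, day or mouse. With the replicate block, 3 p53 genes rose with A1 (Bax also, edgeR adjusted p = 0.0463), 4 fell, and 2 regulators were higher with A1 + OVA than with A1. Replicates differed by 1.92 to 6.87 times counting noise, so that none is a copy. Low counts limit Bbc3 most.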

Other observations

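Perp and Thy1 were near 0 in all samples but control replicate 2. Perp, a p53 target of epithelial cells, was at 0.946 CPM there against 0 to 0.0627 CPM in the other control samples, which is 16 counts, and had at most 1 count in an A1 sample and 2 in an A1 + OVA sample. Thy1 was at 1.01 CPM (17 counts) in the same sample, against 0 to 0.0619 CPM in the other control samples and at most 3 counts in a treated sample. Both genes were noticed after their values were seen. The log2 fold changes of the p53 genes without control replicate 2 are among those of the single samples left out, and of the calls on the 10 genes only that of Bax with A1 + OVA was lost.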
